A study of Mus musculus with 4 samples.

Results

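Fgf21, Gdf15, Stc2 and Vldlr encode a set of 3 secreted stress signals and a lipoprotein receptor that are known as targets of the transcription factor ATF4, and they were chosen by that role. They are 4 of the 21900 protein-coding gene models compared. Peaks were assigned to them where they lay within 1 kb of either end of the gene model, or within 20 kb of it, in build mm10. ATF4 occupancy of chromatin from mouse heart ventricle (age 4 weeks) was mapped by streptavidin pull-down and sequencing, in 2 samples (ATF4-bio1 and ATF4-bio2, here replicates 1 and 2). The matching 2 input samples, sheared chromatin with no pull-down, are not analysed here. The antibody field of both pull-down samples reads AAV without explanation, so whether the protein pulled down was the heart's own ATF4 or came from a vector cannot be told apart. Strain, sex, any promoter or tag and whether the replicates came from separate animals are not stated in the labels, and an SD between replicates may be technical.

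ATF4 is the main transcription factor of the integrated stress response, in which phosphorylation of eIF2 alpha slows general translation while translation of ATF4 mRNA rises. It pairs with C/EBP proteins and binds a composite DNA element, the C/EBP-ATF response element, whose common core reads TGATGCAA. FGF21 and GDF15 are hormones released by stressed cells, and in mice both are known to be made by heart muscle under mitochondrial or endoplasmic reticulum stress. STC2 is a secreted glycoprotein that inhibits pappalysin proteases and so limits the release of insulin-like growth factors, and VLDLR takes up triglyceride-rich lipoproteins in heart and muscle.

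A series-wide list of 41639 peaks was deposited beside a list for each sample, of 78746 peaks for replicate 1 and 88812 for replicate 2. Strength is given as fold enrichment, read here as the pileup at a peak's summit over a constant background for each sample. It is not a ratio to input, and sequencing depth is unknown. In bulk tissue, occupancy in few cells and weaker occupancy in many cannot be told apart. In the series-wide list, which keeps the higher fold of the replicates, a gene-end peak was present at all 8 heart muscle markers, 1 of 8 endothelial, 3 of 8 fibroblast, 3 of 6 smooth muscle and pericyte, 1 of 6 immune and 3 of 5 hepatocyte markers, against 34.8% of protein-coding genes. In replicate 1 the count was 8 of 8 for heart muscle, 5 of 8 for fibroblast and 5 of 6 for smooth muscle and pericyte markers, against 48.2% of genes. In replicate 2 it was 8 of 8 for heart muscle, 8 of 8 for fibroblast and 4 of 6 for smooth muscle and pericyte markers, against 50.2%. In both replicates the count was 3 of 8 for endothelial, 1 of 6 for immune and 3 of 5 for hepatocyte markers. The lists thus held peaks at all the heart muscle markers. In every list the shares for fibroblast, smooth muscle and pericyte, and hepatocyte markers were also above that over all genes. With so few markers, these counts do not tell which cells were bound. The part of other cell types in the peaks at the 4 genes was not tested.

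The promoter sequences of the 4 genes, 250 bases before and 50 from the annotated start, are shown because they place the peak summits against the response element. They come from RefSeq (GRCm38.p6, the assembly of mm10), in which all 4 genes matched by symbol. Capitals mark letters that match TGATGCAA or TGATGNAAN on either strand. In Fgf21 (chr7:45615441-45615740, minus strand) the capitals read TGATGCAAT on the opposite strand, and in Vldlr (chr19:27216770-27217069, plus strand, the downstream of its 2 annotated starts) they read TGATGCAAC. No match was found in the windows of Stc2 (chr11:31370012-31370311, minus strand) and Gdf15 (chr8:70632407-70632706, minus strand), shown for comparison as a start covered by a peak and a start that was not.
Fgf21: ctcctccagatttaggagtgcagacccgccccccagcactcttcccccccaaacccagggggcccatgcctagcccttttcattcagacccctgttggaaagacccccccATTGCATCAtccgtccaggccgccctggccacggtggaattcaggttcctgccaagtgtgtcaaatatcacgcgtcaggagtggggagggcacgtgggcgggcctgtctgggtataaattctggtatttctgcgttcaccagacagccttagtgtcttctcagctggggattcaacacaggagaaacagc
Vldlr: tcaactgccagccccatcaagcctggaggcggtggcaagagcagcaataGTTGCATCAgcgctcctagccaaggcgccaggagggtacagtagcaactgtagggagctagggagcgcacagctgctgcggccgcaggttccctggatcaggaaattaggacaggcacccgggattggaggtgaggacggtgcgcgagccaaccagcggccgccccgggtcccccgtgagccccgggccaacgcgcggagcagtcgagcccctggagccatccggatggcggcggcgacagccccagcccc
Stc2: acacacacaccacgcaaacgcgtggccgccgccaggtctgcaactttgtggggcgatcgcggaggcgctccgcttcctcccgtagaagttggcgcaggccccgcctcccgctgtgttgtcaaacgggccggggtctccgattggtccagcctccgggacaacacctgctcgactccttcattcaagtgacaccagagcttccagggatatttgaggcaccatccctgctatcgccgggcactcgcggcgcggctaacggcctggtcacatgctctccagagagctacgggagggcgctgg
Gdf15: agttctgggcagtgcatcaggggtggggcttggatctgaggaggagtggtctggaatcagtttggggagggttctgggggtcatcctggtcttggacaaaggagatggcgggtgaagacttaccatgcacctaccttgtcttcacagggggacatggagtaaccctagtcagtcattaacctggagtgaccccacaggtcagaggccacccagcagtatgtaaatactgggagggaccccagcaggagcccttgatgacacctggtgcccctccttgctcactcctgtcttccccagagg

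The letters TGATGCAA were present in 294 of 32851 RefSeq promoter windows of this length (0.895%), and TGATGNAAN, which includes them, in 1299 (3.95%). The palindromic element TGACGTCA, present in 588 windows (1.79%), matched none of the 6 windows of the 4 genes. The second annotated windows of Gdf15 (chr8:70632046-70632345) and Vldlr (chr19:27216234-27216533) held none of the 3 motifs. A match of letters is a description and does not by itself mark a site. GC content was 58% in the Fgf21 window, 68% in the Vldlr window with the match, 64.7% in that of Stc2 and 57% in that of Gdf15, against a median of 52.7% over all windows. The Gdf15 window shown held 1 CpG and that of Stc2 held 28.

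At the gene starts, Fgf21, Stc2 and Vldlr carried a series-wide peak over the first base of the gene model, and Gdf15 did not. Such a peak was present at 27.3% of 17492 protein-coding genes of known strand. For a peak of the same list at most 1 kb from either end, the count was 4 of 4 genes, against 34.8% of protein-coding genes. The replicate lists taken alone again gave 4 of 4, against 48.2% of genes in replicate 1 and 50.2% in replicate 2. At 5 kb it was 4 of 4, against 47.3%. With only the 50% of peaks of highest fold, 3 of the 4 genes kept a gene-end peak, against 16.6% of genes. With the 20% of highest fold 2 did, Fgf21 and Vldlr, against 5.6%. The strongest gene-end peak had a fold of 34.0 at Fgf21, 22.0 at Vldlr, 17.0 at Stc2 and 12 at Gdf15, with a median of 19.5 over the 4 genes, against 13.3 over the 7631 protein-coding genes with such a peak. Both replicates gave this order. At Fgf21 this strongest peak lies 754 bp from its model and 813 bp from that of Fut1, while the peak over the Fgf21 start had 14.0-fold. That is below the values of Vldlr and Stc2 and below the 21.5 that bounds the 20% of highest fold. Gdf15 had the lowest value, and its peak lay at the far end of the gene. With 1 kb around the gene start alone the series-wide count was therefore 3 of 4, against 32.9% of genes of known strand. In the replicate lists it was 4 of 4, against 45.3% in replicate 1 and 47.1% in replicate 2, because weak peaks at Gdf15 entered.

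**Figure D1:**
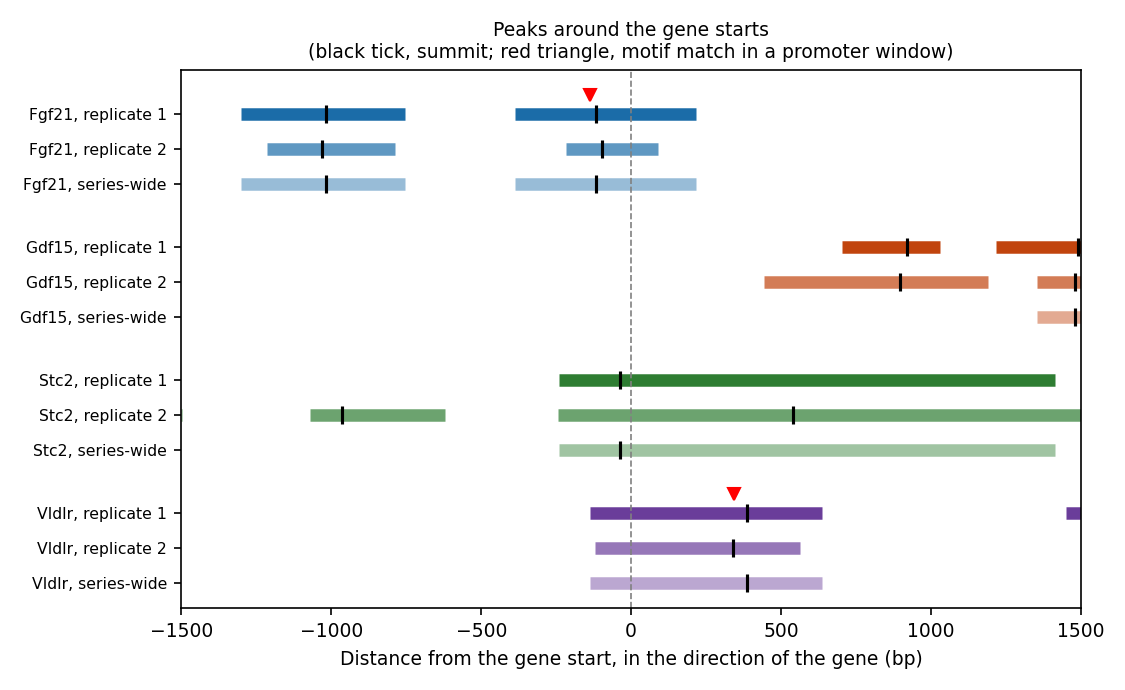
Peaks around the start of each gene model, by list: x axis, distance from the gene start in bp in the direction of the gene; bars, peak extents within the plotted range; black ticks, summits; red triangles, the TGATGCAA match in a promoter window. Peaks cross the start of Fgf21, Stc2 and Vldlr in all 3 lists, whereas at Gdf15 the nearest peaks begin downstream of it.

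Fgf21, which encodes an endocrine fibroblast growth factor of fasting and stress (chr7:45613890-45615490, minus strand, a gene model of 1601 bp), had a pair of peaks at its start. The peak over the start (chr7:45615272-45615876) had a fold of 14.0 in replicate 1 and 13.3 in replicate 2, 13.6 ± 0.497 on average (SD, n = 2). Its summit lay 117 bp upstream of the start in replicate 1 and 97 bp upstream in replicate 2. The TGATGCAA match within the capitals above lies 139 to 132 bases before the start, inside both replicates' peaks. Its middle was 18.5 bp from the summit of replicate 1 and 38.5 bp from that of replicate 2. The stronger peak of the pair (chr7:45616244-45616793) had a fold of 34.0 in replicate 1 and 29.7 in replicate 2, with summits 12 bp apart about 1.02 kb upstream. Its average of 31.8 ± 3.04 (SD, n = 2) was more than 2 times that of the peak over the start, a gap wider than the spread between replicates. At fold 34.0, this peak stood at percentile 95.23 among genes with a gene-end peak. It lies 754 bp from the Fgf21 model and 813 bp from the model of Fut1, a fucosyltransferase gene that starts 2116 bp away on the other strand, so position does not assign it to one gene.

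Few other peaks lay near Fgf21. The series-wide list held 2 within 20 kb of it, a number reached or passed by 48.1% of protein-coding genes, and both were those just described. Replicate 1 held 3 peaks and replicate 2 held 6. A peak inside Rasip1, 13.5 kb upstream, had a fold of 6.0 in replicate 1 and 7.98 in replicate 2 and was missing from the series-wide list. A replicate 2 peak of 10.6-fold that began 3.99 kb beyond the end of the gene had no partner in replicate 1.

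Gdf15, which encodes a hormone of the TGF-beta superfamily that acts on food intake through the brainstem (chr8:70629393-70632470, minus strand, 3078 bp), had peaks inside and beyond the gene but none over its start. Both replicates held a weak peak within 1 kb downstream of the start, with a fold of 6.0 in replicate 1 and 7.98 in replicate 2, that was absent from the series-wide list. These began after the promoter windows, of which 0 bases were covered in any list. The first annotated base of the lncRNA gene Gm34154, on the other strand, lies 93 bp from that of Gdf15.

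Within the Gdf15 model, a peak 1.48 kb after the start (chr8:70630516-70631115) had a fold of 13.5 in replicate 1 and 16.4 in replicate 2, 14.9 ± 2.05 on average (SD, n = 2), with summits 10 bp apart. The peak near the far end of the gene (chr8:70629655-70630134), the one that counted as its gene-end peak, had a fold of 12 in replicate 1 and 9.31 in replicate 2 (10.7 ± 1.9, SD, n = 2). It stood at percentile 37.73 of genes with such a peak. Both replicates had the inner peak higher than the one at the end, with no overlap of the values. A peak 1.71 kb beyond the gene had 10.5-fold in replicate 1 and 18.6-fold in replicate 2, and its SD of 5.74 around a mean of 14.6 was the widest of the 22 series-wide peaks near the 4 genes.

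The strongest peak near any of the 4 genes lay 17.1 kb upstream of Gdf15 (chr8:70649306-70649819), with a fold of 45.5 in replicate 1 and 41.7 in replicate 2 (43.6 ± 2.71, SD, n = 2). It stood at percentile 98.07 of all series-wide peaks. It lies inside Pgpep1, which encodes a pyroglutamyl peptidase (chr8:70646436-70660446), and the peak lists do not tie it to either gene. In all, 6 series-wide peaks lay within 20 kb of Gdf15, a number reached by 9.56% of protein-coding genes. A weaker peak 18.1 kb beyond the other end of the gene, with a fold of 9.0 in replicate 1 and 7.09 in replicate 2, was nearest to Ssbp4. Each replicate list split it into 2 peaks, and the summits of the stronger ones lay 913 bp apart, the widest gap of the 22.

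Stc2, which encodes stanniocalcin 2 (chr11:31359441-31370061, minus strand, 10621 bp), had a broad peak over its start (chr11:31368646-31370301). It measured 1656 bp in replicate 1 and 1771 bp in replicate 2, wider than 99.69% and 99.79% of the peaks of those lists. The fold was 17.0 in replicate 1 and 16.0 in replicate 2 (16.5 ± 0.738, SD, n = 2), a narrow spread, at percentile 70.9 of genes with a gene-end peak. The summit lay 37 bp before the start in replicate 1 and 541 bp after it in replicate 2. The replicates therefore matched in extent and height, but not in the position of the highest point. A separate peak of 7.09-fold, 963 bp upstream, was found in replicate 2 alone. The broad peak covered 290 of the 300 bases of the promoter window printed above in replicate 1 and 294 in replicate 2.

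The other series-wide peaks of Stc2 were mainly upstream. A group of 3 lay 16.7 to 19.1 kb before the start, in a stretch with no other RefSeq gene model within 20 kb of Stc2. The strongest of them (chr11:31387465-31387821) had a fold of 18.5 in replicate 1 and 25.7 in replicate 2 (22.1 ± 5.10, SD, n = 2), with summits 6 bp apart. Both values were above those of the broad peak at the start, but the replicates were farther apart. The flanking peaks had 10.5 ± 1.43 and 13.9 ± 0.184 fold (SD, n = 2 each). Closer to the start, a peak 1.53 kb upstream of the model had 9.46 ± 1.47 fold (SD, n = 2), and a peak inside the gene had 8.88 ± 1.24 fold (SD, n = 2).

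Vldlr, the lipoprotein receptor of the set (chr19:27216480-27254231, plus strand, 37752 bp), had 8 peaks in the series-wide list within 20 kb, 13 in replicate 1 and 16 in replicate 2. Gdf15 had 13 in each replicate. As many series-wide peaks were found at 4.9% of protein-coding genes, and Vldlr has the longest model of the 4, which widens the stretch counted. Per 10 kb of that stretch it had 1.03 series-wide peaks, against a median of 0.198 over protein-coding genes, while Gdf15 had 1.39, Stc2 had 1.18 and Fgf21 had 0.481. The peak over its start (chr19:27216342-27217116) spanned both annotated starts and had a fold of 22.0 in replicate 1 and 19.9 in replicate 2 (21.0 ± 1.45, SD, n = 2). It stood at percentile 84.54 of genes with such a peak. Its summit lay 387 bp after the start of the model in replicate 1 and 340 bp after it in replicate 2. The TGATGCAA match lies 200 to 193 bases before the downstream start, and its middle was 43.5 bp from the summit of replicate 1 and 3.5 bp from that of replicate 2.

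A pair of peaks outside the Vldlr model had higher folds in both replicates than the one over its start. The upstream one (chr19:27210924-27211479) ended 5.0 kb before the gene and had a fold of 23 in replicate 1 and 26.6 in replicate 2 (24.8 ± 2.54, SD, n = 2). The downstream one (chr19:27262163-27262595) began 7.93 kb after the gene and had 23-fold in replicate 1 and 30.1-fold in replicate 2 (26.6 ± 5.05, SD, n = 2). In replicate 1 the 3 peaks lay between 22.0 and 23, and in replicate 2 the peak over the start was the lowest. A further peak downstream had 10.5-fold in replicate 1 and 12.4-fold in replicate 2. Inside the gene, 4 weaker series-wide peaks had mean folds between 7.74 and 11.8. All of these peaks also lie inside the lncRNA model Gm35438, which runs on the other strand across the whole locus.

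**Figure D2:**
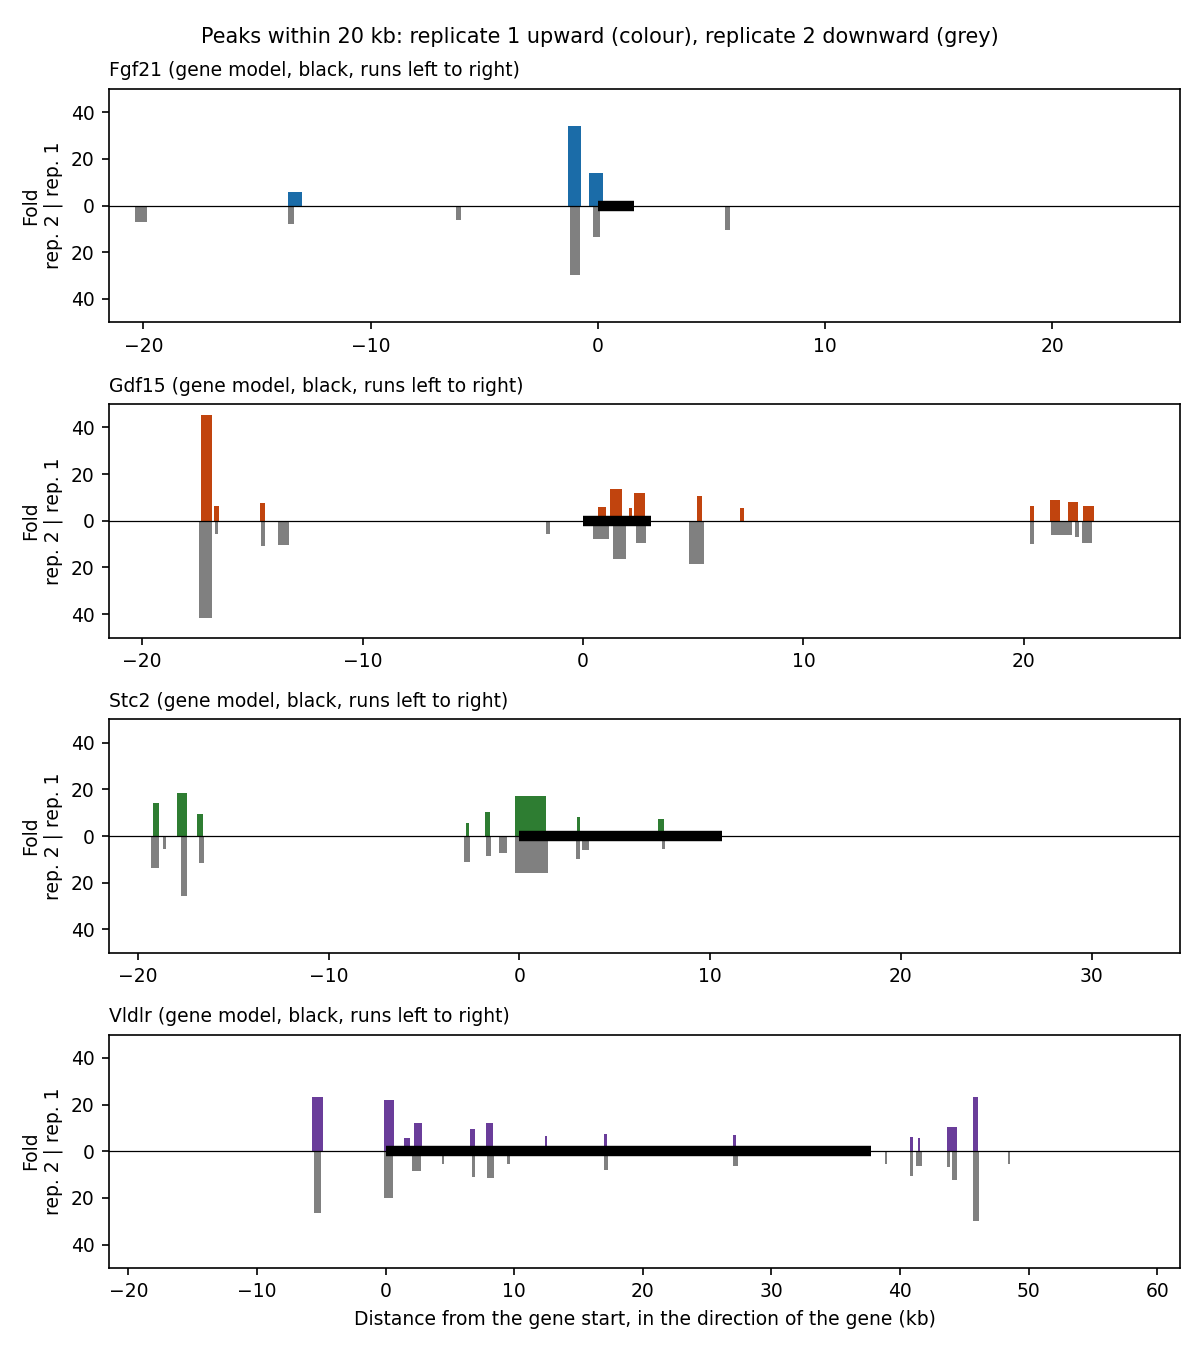
All peaks within 20 kb of each gene: x axis, distance from the gene start in kb in the direction of the gene; y axis, fold, for replicate 1 upward in colour and replicate 2 downward in grey; black bar, gene model. The bar of 45.5 and 41.7 fold upstream of Gdf15 is the tallest, and the broad block at the start of Stc2 is the widest.

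All 4 genes had peaks within 20 kb in every list, as did 68.1% of protein-coding genes in the series-wide list, 77.9% in replicate 1 and 79.1% in replicate 2. Of series-wide peaks there were 22. All 22 overlapped a peak of both replicates, as did 97.6% of all series-wide peaks, a list that is named as merged over replicates, so this is near the background. Of them, 11 were higher in replicate 1 and 11 in replicate 2. Summits of the replicates were a median of 16 bp apart, and 18 of the 22 (81.8%) were at most 50 bp apart, against a median of 21 bp and a share of 80.0% over all series-wide peaks with both. The peaks were of ordinary strength, with a median fold of 13.2 against 13.7 for all series-wide peaks, and 6 of 22 were among the 20% of highest fold (21.5 and above). Their median width was 532 bp, against 441 bp. At every one of the 4 genes the strongest peak of the locus did not cover the gene start, but this was also so at 86.7% of the 8393 genes of known strand with at least 2 peaks within 20 kb, and at 71% of those that had a peak over the start, so the share is near the background. The farthest peaks counted were the 14.0-fold peak 18.9 kb from Stc2 and the 9.0-fold peak 18.1 kb from Gdf15, and the nearest not counted was a 9.0-fold peak 20.5 kb from Fgf21.

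**Figure D3:**
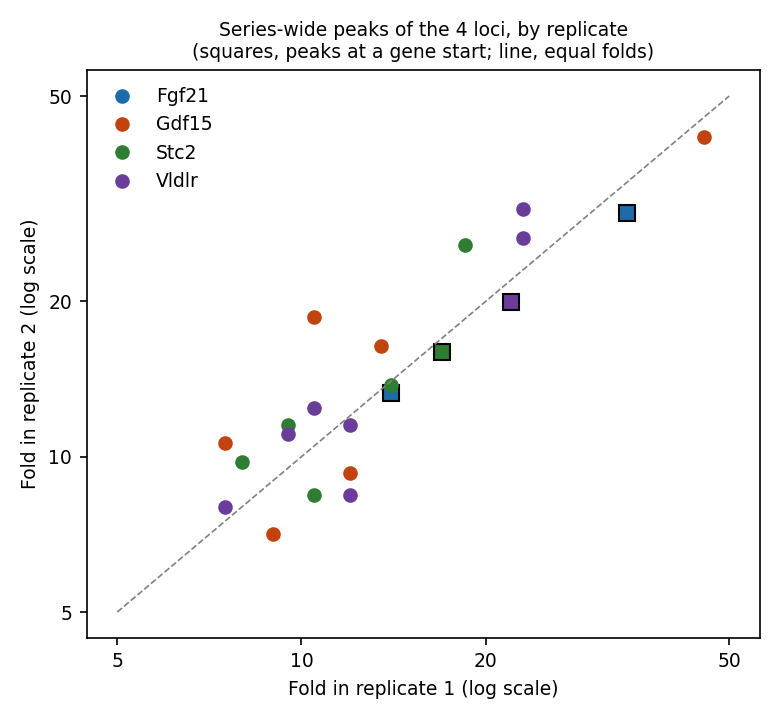
Fold in replicate 1 (x axis, log scale) and replicate 2 (y axis, log scale) of the 22 series-wide peaks, coloured by gene; squares, peaks within 1 kb of a gene start; dashed line, equal folds. Peaks fall on both sides of the line, 11 on each, and all 4 peaks at gene starts lie just under it.

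The replicate lists held more peaks at these loci, 37 in replicate 1 and 46 in replicate 2. A counterpart in replicate 2, sharing 1 bp or more, existed for 33 of the first (89.2%), against 81.2% over that whole list. Conversely, 35 of the second (76.1%) had a counterpart in replicate 1, against 72.1%. Both shares were close to those of the whole lists. The 4 peaks found in replicate 1 alone had folds of 5.5 to 6.5. The 11 found in replicate 2 alone had 5.32 to 10.6, the highest being the one beyond the end of Fgf21.

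Peaks at other genes of the same pathways were counted over lists compiled with earlier results of these data known, and differences between lists were not tested. Among 25 other genes of the integrated stress response, 23 had a series-wide gene-end peak, with a median fold of 20.5, against 34.8% and 13.3 over protein-coding genes. Eif2ak2, which encodes the double-stranded RNA kinase PKR, and the cystine transporter gene Slc7a11 were the others. Eif2ak2 had a peak of 5.76-fold in replicate 2 alone. The count was 23 of 25 in replicate 1 and 24 of 25 in replicate 2, against 48.2% and 50.2% of genes. The strongest of this list were Chac1, which encodes a glutathione-degrading enzyme, with 51.1 ± 2.30, Herpud1 with 45.9 ± 2.91, the pseudokinase gene Trib3 with 45.2 ± 6.83 and the transcription factor gene Atf3 with 41.1 ± 4.16 fold (SD, n = 2 each). All 4 values were above the 31.8 of Fgf21, which is that of the peak also near Fut1. Other secreted factors of heart cells had a series-wide gene-end peak at 11 of 20 genes (55.0%), with a median fold of 16.0. In each replicate list the count was 14 of 20, against 48.2% of genes in replicate 1 and 50.2% in replicate 2. Nppb, the B-type natriuretic peptide gene, had 48.6 ± 7.16 fold (SD, n = 2), Edn1, the endothelin 1 gene, had 46.1 ± 1.93 (SD, n = 2), Il6 had 20.8 ± 7.53 (SD, n = 2) and Adm, the adrenomedullin gene, had 15.7 ± 5.97 (SD, n = 2). In that list Angpt1 and Apln had none, and Angpt1 had weak peaks of 6.5-fold in replicate 1 and 7.54-fold in replicate 2.

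Receptors and relatives of the 4 proteins made up 4 further lists. A series-wide gene-end peak was present at 34.8% of protein-coding genes. The FGF, GDF15 and lipoprotein uptake lists had a lower share, and the stanniocalcin and IGF list a slightly higher one. Of 8 FGF ligands, coreceptors and receptors, 1 had a series-wide gene-end peak, which was Fgfr3 with 7.52 ± 0.025 fold (SD, n = 2), and the endocrine FGF genes Fgf15 and Fgf23 had none. In each replicate list the count was 3 of 8, with peaks also at the receptor genes Fgfr1 (8.43 ± 0.612 fold) and Fgfr4 (6.63 ± 1.23 fold, SD, n = 2 each). Fgfr1, with 8.0-fold in replicate 1 and 8.865-fold in replicate 2, was above Fgfr3, with 7.5-fold and 7.535-fold. Of 9 relatives and receptor genes of GDF15, 1 had a peak, Tgfb3 with 20.4 ± 1.25 fold (SD, n = 2), and Gdf11 and Bmp10 had none. In each replicate list 2 of 9 had one, the other being Tgfb1 with 5.41 ± 0.128 fold (SD, n = 2). Fgfr1, Fgfr4, Tgfb1, Stc1, Lrp6 and Lrpap1 were named after their values were seen. Of 8 stanniocalcin and IGF genes, 3 had a peak, Igf1 with 17.9 ± 5.46, Igf1r with 9.38 ± 0.532 and Igfbp5 with 8.18 ± 0.965 fold (SD, n = 2 each). Igfbp4, Igf2r and Stc1 had peaks in each replicate and none in the series-wide list. Stc1, which encodes the paralogue of STC2, had 7.24 ± 1.05 fold (SD, n = 2). Of 12 genes of lipoprotein uptake (related receptors, their ligands and regulators), 3 had a peak. These were Lpl, which encodes the lipase that acts before lipoprotein uptake, with 13.4 ± 0.524, Lrp1 with 11.5 ± 1.35 and Mylip, whose product marks VLDLR for degradation, with 10.1 ± 0.138 fold (SD, n = 2 each). The receptor genes Lrp2 and Lrp4 had none in the series-wide list, and Lrp4 had one of 6.65-fold in replicate 2 alone. Lrp6 (6.57 ± 0.105 fold) and Lrpap1 (6.52 ± 1.44 fold, SD, n = 2 each) had peaks in each replicate and none in the series-wide list. By the replicate lists, 5 genes of lipoprotein uptake had a peak in replicate 1 and 6 in replicate 2. The stanniocalcin and IGF list had 6 in each. The share of protein-coding genes was 48.2% in replicate 1 and 50.2% in replicate 2. In both replicates the FGF, GDF15 and lipoprotein uptake lists lay below that share, and the stanniocalcin and IGF list above it. These lists are short, and the differences were not tested.

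**Figure D4:**
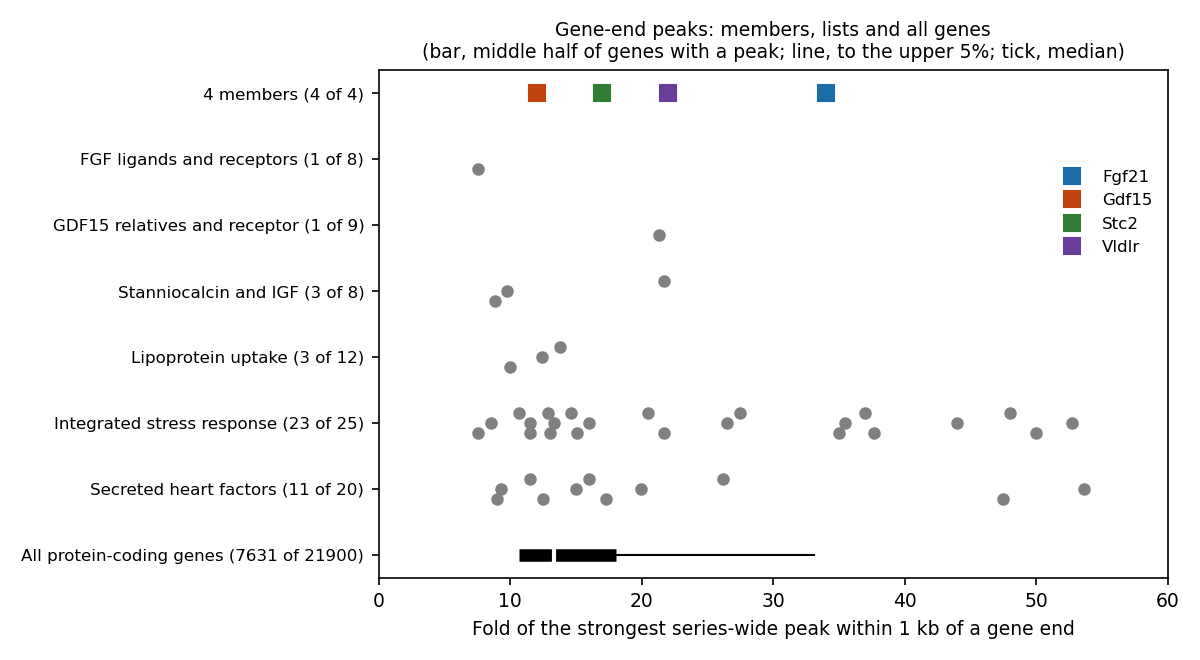
Gene-end fold, that of the strongest series-wide peak at most 1 kb from an end (x axis), for the 4 genes (squares), genes of 6 lists (grey points, with the number of genes that have a peak) and all protein-coding genes (bar, quartiles; white tick, median; line, to the 95th percentile). Fgf21 at 34.0, a peak also within 1 kb of Fut1, lies past the end of the line, and Gdf15 at 12 lies below the median of 13.3.

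By the folds of the gene-end peak in both replicates, the 3 genes most like each of the 4 were picked among 9888 others, as distance on the log2 scale over 2 samples. For Fgf21 they were Fut1, which has the same peak, Noct and Eif1. For Vldlr they were Trim72, Znrd1 and Znrd1as, all at a distance of 0. For Stc2 a total of 6 genes were at a distance of 0, the first by alphabet being Dgat1, Edaradd and Epb41l4b. For Gdf15 there were 20 such ties, beginning with A430005L14Rik, Acox3 and Caskin2. Over 2 samples this likeness says only that the folds were equal or nearly so.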

How the data were processed

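Peak lists of 2 ATF4 pull-down samples and of the series were used (0 value columns left unmapped). Per the submitters' processing notes, Bowtie2, MACS2, deepTools and mm10 were involved; no role, order or version is given. The series-wide list gives the authors' deposited fold per peak and a summit offset. Each replicate list, as the authors deposited it, holds the summit position and a significance value, −log10 of a p- or q-value. These values were 2.57 to 9.43 (replicate 1) and 2.53 to 9.43 (replicate 2) below the Poisson −log10 p of the same pileup, the direction of an adjusted value. Starts in the replicate lists are 1-based, and series-wide starts were shifted to match.

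Where a replicate peak recurs in the series-wide list with equal coordinates and summit (17420 and 21053 peaks), its value could be assigned a fold. The folds ran in steps of 0.5 in replicate 1 and 0.4433 in replicate 2 (tolerance 0.001 of a step). The 4 and 5 lowest values without such a peak continue the steps downwards, 1 step per value. A further 2 and 9 higher values without one were interpolated between their neighbours. The lowest replicate folds thus rest on this rule and not on a matched peak. Folds were whole multiples of these steps and were read as (pileup + 1) over (background + 1). The constant backgrounds of 1.0 and 1.256 follow from the steps under this assumed form and were not measured. The Poisson values above rest on the same reading. Folds were not scaled between samples, and no interval for counting error is given.

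Genes were 21900 protein-coding RefSeq models of GRCm38.p6, with strand from a RefSeq promoter table for 17492. A peak counts where it overlaps a window by at least 1 bp. Exons and introns were not told apart. No significance test was made, since all samples with peaks belong to 1 group. The genes and lists were chosen with earlier results of these data known. In each of 6 lists the text names up to 4 genes of highest series-wide fold and the first 2 by alphabet without a gene-end peak; all 123 list entries matched a symbol, and 1 further gene is not reported here. Window assignment and motif search were tested on simulated data: 400 of 400 genes and 200 of 200 motifs came out as placed. The genes were widely spaced models, with gene-end peaks placed at the lower coordinate only. The motif was TGATGCAA, placed in sequences of A and G. Crowded loci, the window at the gene start, chance matches and the other motifs were thus not tested. Alternatives were other windows, stricter peaks, other overlaps, scaling and each replicate alone; list counts per replicate were added after seeing the data. Scripts ran in Python 3.11.15 with pandas 2.3.3, NumPy 2.4.6 and Matplotlib 3.10.9, and Poisson values came from SciPy 1.17.1.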

Additional observations from a re-analysis of the deposited data

How the results depend on the processing

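The number of the 4 genes with a gene-end peak was 4 with a 5 kb window and in each replicate alone (4 to 4), 3 with the gene start alone or with the 50% of peaks of highest fold, and 2, Fgf21 and Vldlr, with the 20% of highest fold. With the 20%, Fgf21 counted only by the peak that also lies within 1 kb of Fut1. The share of gene models with such a peak was 34.8% for protein-coding and 21.8% for all models. Scaling the replicates to a common median moved the mean gene-end folds by less than 1 SD. Each replicate alone, and the series-wide fold, which is the higher of them, say nothing on stability with n = 2. Peaks within 20 kb numbered 22, against 16 within 10 kb, 37 within 50 kb, 11 among the 50% of highest fold, and 37 to 46 in the replicate lists alone. Shared replicate 1 peaks numbered 33 of 37, 25 with a reciprocal overlap of 50%, and 18 of 19 among the 50% of highest values. For the counts, stricter or wider settings take in fewer or more peaks by construction. Counts of 4 of the 6 lists were over 1.5 times higher in the replicate lists than in the series-wide list. No paired analysis was possible because the input samples that share the replicate numbers are not analysed here and the pull-down samples form 1 group. Depth is unknown, so peaks too weak to be called cannot be told from absent ones.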

Other observations

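Over all RefSeq promoter windows, a series-wide peak overlapped 18.0% of the 294 windows that hold TGATGCAA, against 23.4% of all 32851 windows. For the palindromic TGACGTCA the share was 50.9%, and for the wider TGATGNAAN it was 14.2%. Where a peak did overlap, its median fold was 15.5 in windows with TGATGCAA, 13.3 in those with TGACGTCA and 13.0 over all windows. These are counts without a test, and windows with different motifs may differ in base composition. Among the 46 windows with 1 match of TGATGCAA and a summit of both replicates, the summit was a median of 23 bp from the middle of the match in replicate 1 and 20.0 bp in replicate 2. It was within 50 bp in 69.6% of them in replicate 1 and 76.1% in replicate 2. Fgf21 and Vldlr, which are among these windows, had such distances in both replicates. Picking windows of 300 bases that hold both the match and the summits keeps the distances short by itself. No share for windows without the match was taken. Of the 25 other genes of the integrated stress response, 5 had the match in a promoter window (Atf3, Chac1, Herpud1, Nupr1 and Slc7a11), and a series-wide peak overlapped that window in all 5. At Slc7a11 the window lies away from the ends of the gene model, which had no gene-end peak. Over all genes with a promoter window, 1.03% had a match.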
